A study of Mus musculus with 8 samples.

Results

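H3K27ac, the acetylation of histone H3 at lysine 27 that marks active promoters and enhancers, was examined at 8 genes of T cell receptor signalling in 4 mouse breast tumors. The genes were Cd3g, Cd3d, Cd3e, Cd4, Cd28, Lck, Zap70 and Bcl11b, chosen by name from 21911 protein-coding genes, and each was studied over its gene body with 50 kb added on either side (its window). The rule itself used no measured value. All mice were on the Balb/c background, carried the PyMT transgene and were Rag1KO, and all had been given WT CD4+ T cells by injection when 4 weeks old. Control tumors (n = 2) came from PyMT;Rag1KO mice, and test tumors (n = 2) came from K14-TSLPtg;PyMT;Rag1KO mice, which also carried thymic stromal lymphopoietin (TSLP). PyMT is the polyoma middle T oncogene driven by the MMTV promoter, and the TSLP transgene is driven by the keratin 14 promoter of basal epithelium. In the labels the control tumors are titled as tumor and those of the test group as cyst. Rag1KO hosts make no T or B cells of their own but keep innate lymphoid and myeloid cells, so T cells in these tumors would descend from the injected CD4+ cells. Each sample was a piece of whole tumor, and in such material fewer T cells and less acetylation per T cell cannot be told apart.

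A T cell senses antigen through the T cell receptor, whose antigen-binding chains signal through the CD3 chains encoded by Cd3g, Cd3d and Cd3e. The coreceptor CD4 binds MHC class II and brings the kinase LCK to the receptor, LCK phosphorylates the CD3 tails, and the kinase ZAP70 docks there and passes the signal on, while CD28 supplies the costimulatory signal. BCL11B is a transcription factor needed for commitment to the T lineage, and it is also made in other cells, among them basal epithelial cells of skin and mammary gland.

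The deposited data were lists of peak positions without heights, so a gene was described by the percent of its bases inside peaks (coverage), by the number of peaks and by the presence of a peak within 1 kb of its start (a promoter peak). The lists held 59762 to 69861 peaks covering 64.3 to 73.1 Mb per tumor. Test 2 had the fewest peaks and the least covered length. Sequencing depth is unknown, and it can change the number and the width of peaks. With 2 tumors per group an exact permutation test over tumors (two-sided) cannot give a p below 0.333, so values are given per tumor and groups are compared by whether they overlap. The Rag1 gene, disrupted in all 4 mice, held a single peak of 231 to 357 bp in each tumor, and Tslp held no peak within 1 kb of its start in any tumor. Neither measurement tests the genotype, because the lists hold no reads and the transgene need not carry the promoter of Tslp.

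The 3 CD3 genes lie next to each other on chromosome 9 (Cd3g at chr9:44969572-44980431, Cd3d at chr9:44981786-44987339 and Cd3e at chr9:44998740-45009627, mm10), so the 8 windows form 6 separate loci of 859.665 kb in all. The others are Cd4 (chr6:124864692-124888221), Cd28 (chr1:60716800-60773359), Lck (chr4:129548344-129573641), Zap70 (chr1:36761798-36782818) and Bcl11b (chr12:107910403-108003602). Cd28 and Zap70 lie far apart on chromosome 1. Shown first is the 200 bases upstream of the start for 3 genes, because Bcl11b had a peak there in 3 tumors and the other 2 had none. The sequences were read from the GRCm38.p6 genome, 5′ to 3′ on the strand of the gene, and the capitals mark CpG dinucleotides (chr12:108003603-108003802, chr9:45009628-45009827 and chr6:124888222-124888421, all on the minus strand).
Bcl11b, peak at the start in 3 tumors: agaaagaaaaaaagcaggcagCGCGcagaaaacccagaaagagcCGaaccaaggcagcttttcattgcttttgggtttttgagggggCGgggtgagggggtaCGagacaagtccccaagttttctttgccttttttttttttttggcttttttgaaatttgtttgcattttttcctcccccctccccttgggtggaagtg
Cd3e, no peak at the start in any tumor: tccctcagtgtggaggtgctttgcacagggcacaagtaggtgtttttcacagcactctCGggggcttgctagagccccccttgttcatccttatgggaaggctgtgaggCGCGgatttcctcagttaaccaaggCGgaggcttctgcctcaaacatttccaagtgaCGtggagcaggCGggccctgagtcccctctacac
Cd4, no peak at the start in any tumor: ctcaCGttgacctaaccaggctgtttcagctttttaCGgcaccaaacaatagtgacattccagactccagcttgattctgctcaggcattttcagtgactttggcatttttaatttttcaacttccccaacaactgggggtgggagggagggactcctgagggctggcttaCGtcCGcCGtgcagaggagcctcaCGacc

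Promoters rich in CpG are often acetylated in many cell types, so CpG content was counted as context. The 3 sequences held 5, 6 and 6 CpG. Across the members the count ran from 0 (Cd3d and Lck) over 2 (Cd3g) and 5 (Cd28 and Bcl11b) to 6 (Cd3e, Cd4 and Zap70), against a median of 7 over 21911 genes. Of the genes with 0 to 2 CpG, 18.2% had a promoter peak in at least 1 tumor, compared with 55.5% of the genes with 3 to 9 and 84.7% of the genes with 10 or more. No member fell in the richest class, 3 fell in the poorest, and Bcl11b and Cd3e lay in the same middle class with and without a peak.

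The first question was whether the starts of these genes were acetylated in any of the tumors. Promoter peaks were found for 3 of the 8 genes in at least 1 tumor, against 57.2% of all protein-coding genes, and for 0 of the 8 in all 4 tumors, against 49.5%. Cd3g, Cd3d, Cd3e, Cd4 and Zap70 had none in any tumor. The start of Bcl11b was inside a peak in control 1, control 2 and test 1. The other 2 genes were each marked in 1 tumor, where the peak reached 278 bp into the promoter of Cd28 in control 2 and 76 bp into that of Lck in control 1. Within the gene body, 4 of the 8 genes (Cd3g, Cd3e, Cd4 and Zap70) had no peak in any tumor, which was the case for 33.7% of all genes. The defining markers of CD4+ T cells, the CD3 genes and Cd4, thus had no called peak at their starts.

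**Figure D1:**
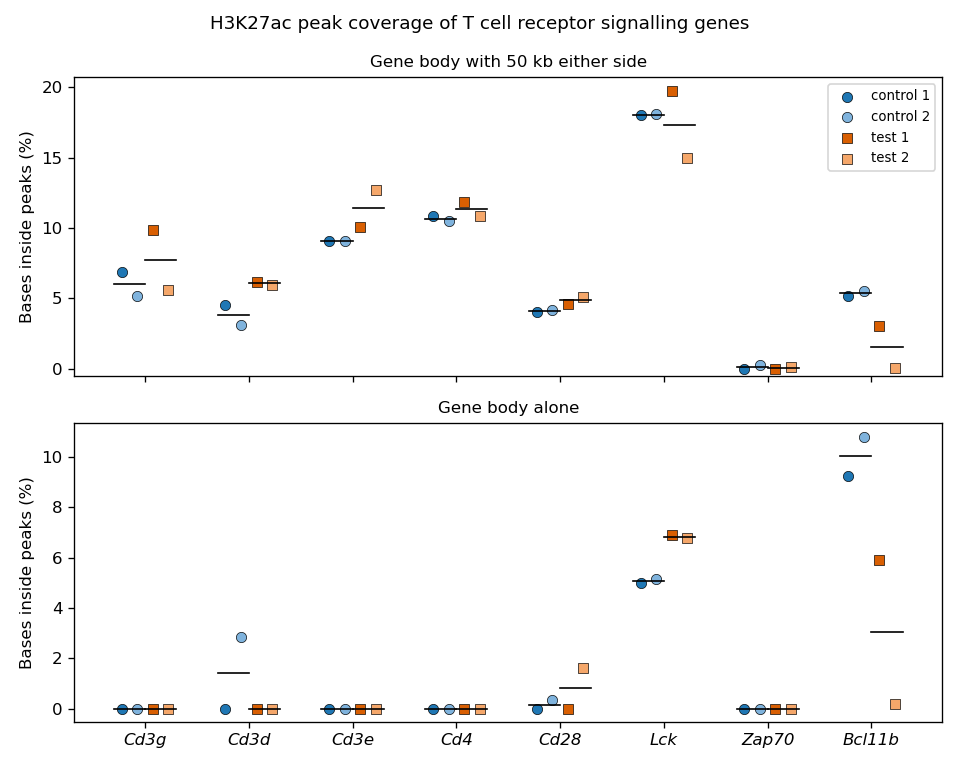
Percent of bases inside H3K27ac peaks (vertical axis) for each gene, over the window (top) and the gene body alone (bottom); points are single tumors, circles control and squares test, and black lines are group means (n = 2). Windows were covered by up to 19.7% while 4 gene bodies stayed at 0 in every tumor, and Bcl11b had both control tumors above both test tumors in both panels.

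Over the windows the picture differed from that at the starts. All 6 loci together had 7.87% (control 1), 7.75% (control 2), 8.27% (test 1) and 6.64% (test 2) of their bases in peaks, against medians over all genes of 3.26% to 3.64%. The groups overlapped, with test 1 the highest and test 2 the lowest, and the difference of -0.36 percentage points was smaller than the pooled SD of 0.819. Both test tumors lay above both control tumors for 4 genes (Cd3d, Cd3e, Cd4 and Cd28), and this order held for 17.3% of all genes with coverage. The opposite order held for Bcl11b alone, and for 13.0% of all genes. Cd3g, Lck and Zap70 overlapped. By number of peaks in the window, both control tumors were above for Bcl11b and for Lck (19, 20, 15 and 16 peaks in control 1, control 2, test 1 and test 2), against 15.8% of all genes with a peak. Both test tumors were above for Cd3g (7, 7, 11 and 10 peaks) and Cd3d (5, 7, 9 and 11 peaks), against 5.55%, and the other 4 genes overlapped. Across all genes the median difference in coverage between the groups was 0.02 percentage points.

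Most of the covered bases did not belong to the 8 genes. The bodies of the 8 genes with 1 kb around their starts made up 29.5% of the bases of the loci and held 15.7% and 18.3% of the covered bases of control 1 and control 2, and 10.6% and 4.92% of those of test 1 and test 2. Bcl11b alone held 9.33, 10.3, 5.80 and 0.173 kb of these bases in control 1, control 2, test 1 and test 2. In the same order Lck held 1.26, 1.30, 1.74 and 1.71 kb and Cd28 0, 0.472, 0 and 0.923 kb. The CD3 genes held 0.158 kb in control 2 only. The lower amounts in the test tumors thus lay at Bcl11b. Within 1 kb of the starts of the neighbouring genes, 46.7% to 53.0% of the bases were covered in each tumor. Of 20 neighbouring genes with a start in these windows, 14 had a promoter peak in all 4 tumors, 5 in none (Gnb3, P3h3, Gpr162, Lag3 and Actr1b) and 1 in some (Fam167b, in both control tumors only). Overlapping peaks of the 4 tumors joined into 85 regions, of which 30 were present in all 4 tumors, and 15 of these 30 lay at the start of a neighbouring gene, 9 between genes, 5 in the body of a neighbouring gene and 1 in the body of a member.

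**Figure D2:**
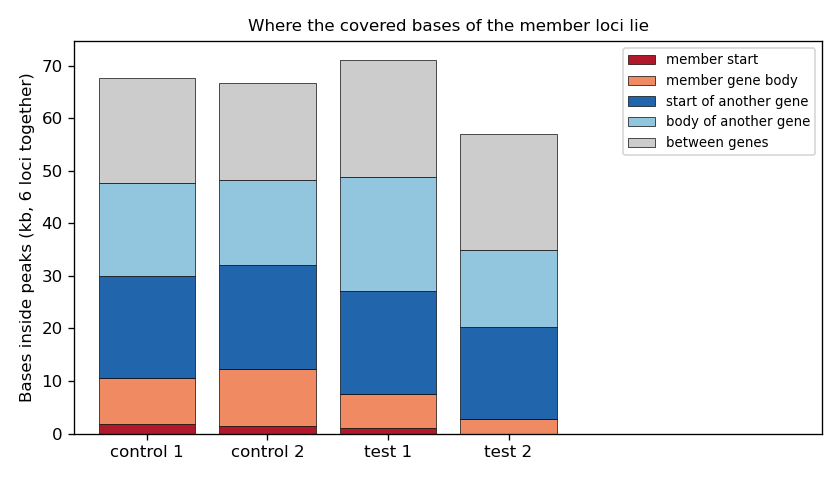
Kilobases inside H3K27ac peaks in the 6 loci together, stacked by position, with 1 bar per tumor; member start means within 1 kb of the start of one of the 8 genes. The member starts and bodies held 10.6 and 12.2 kb in the control tumors, 7.54 kb in test 1 and 2.81 kb in test 2, while the starts of other genes held 17.5 to 19.8 kb in all tumors. Bcl11b alone held 9.33 and 10.3 kb of the member bases in the control tumors, 5.80 kb in test 1 and 0.173 kb in test 2.

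At the CD3 genes, which encode the signalling chains of the receptor, peaks surrounded the genes but left them empty. Cd3g and Cd3e held no peak in the gene body in any tumor, and Cd3d held 1 peak of 158 bp in control 2, in the 3′ untranslated part of the gene. The nearest peak to the start of Cd3e was 9.33 to 14.7 kb upstream in the 4 tumors. The window of Cd3e was covered by 9.06%, 9.07%, 10.1% and 12.7% in control 1, control 2, test 1 and test 2, and the test tumors lay above the control tumors. That of Cd3d was covered by 4.55%, 3.11%, 6.16% and 5.98% in the same order, again with the test tumors above, but the difference of 2.24 percentage points turned to -0.31 with a 10 kb flank and -1.42 over the gene body, and was 0.34 with peaks at least 1 kb wide. That of Cd3g was covered by 6.89%, 5.17%, 9.84% and 5.61%, and the groups overlapped. The 3 windows share most of their bases, so these are not independent values. The difference at Cd3e was 2.32 percentage points, 1.01 without test 2 and 3.62 without test 1. It was 0.48 with a 10 kb flank and 0 over the gene body, which held no peak. The difference at Cd3g was 1.70, and -0.42 without test 1. The widest region of the locus lay over the start of Mpzl2, an epithelial cell adhesion gene, with 4212 to 4649 bp of peaks in every tumor, and the starts of Mpzl3, Ube4a and Atp5l also had a peak in every tumor. Between Cd3e and Mpzl2 test 2 stood apart, with 7 regions and 4.354 kb of peaks against 0.690, 1.011 and 0.973 kb in control 1, control 2 and test 1. On the other side, the region at the start of Ube4a was centred 14.6 kb from the start of Cd3g. The only region between genes in this locus that was present in all 4 tumors (chr9:45024066-45025058, centred 14.9 kb upstream of Cd3e) had peaks of 690, 654, 719 and 993 bp. The 200 bases at the middle of the stretch shared by all 4 tumors are shown (chr9:45024621-45024820, plus strand, CpG in capitals), with 2 CpG.
Shared region upstream of Cd3e: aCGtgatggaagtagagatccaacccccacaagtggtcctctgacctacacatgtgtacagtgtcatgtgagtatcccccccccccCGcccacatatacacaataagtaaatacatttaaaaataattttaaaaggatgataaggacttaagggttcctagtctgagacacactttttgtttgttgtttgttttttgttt

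For the coreceptor gene Cd4, no tumor had a peak within the gene or within 1 kb of its start. The nearest peak was a single one of 182 bp in control 2, 5.64 kb upstream of the start, and 15.5 kb upstream in the other 3 tumors, where the peak overlapped the neighbouring gene Lag3. The window was covered by 10.8%, 10.5%, 11.8% and 10.9% in control 1, control 2, test 1 and test 2. The test tumors were above the control tumors by 0.70 percentage points on average, but test 2 (10.86%) barely exceeded control 1 (10.84%), and the difference was 0.20 without test 1 and 1.19 without test 2. All of the covered bases lay outside Cd4, and 14.7% to 20.9% of them lay between genes and the rest at the starts or in the bodies of other genes. The window holds 8 other protein-coding starts, against a median of 2 over all genes, and 4 of the 8 (Gnb3, P3h3, Gpr162 and Lag3) had no promoter peak in any tumor. With a 10 kb flank the difference at Cd4 turned to -0.21. The widest region, with 5822 to 5973 bp of peaks in each tumor, lay at the start of Ptms, which encodes parathymosin. Lag3, which encodes an inhibitory receptor that also binds MHC class II, had no promoter peak but a peak of 1312 to 1390 bp at its 3′ end in every tumor (chr6:124903715-124905115).

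The costimulatory gene Cd28 held narrow peaks in control 2 and test 2 and none in the other tumors. In control 2 a peak of 441 bp lay 723 bp upstream of the start and another of 194 bp lay 1.73 kb downstream of it. Test 2 held a peak of 298 bp at nearly the same place downstream, and 2 further peaks of 355 and 270 bp in the 3′ untranslated part. Gene body coverage was thus 0, 0.343%, 0 and 1.63% in control 1, control 2, test 1 and test 2, and the groups overlapped. The window, which holds no other protein-coding start, was covered by 4.00%, 4.15%, 4.63% and 5.10%, with both test tumors above both control tumors by 0.79 percentage points on average. With a 10 kb flank the difference was 0.06 and the groups overlapped. Most of the covered bases of the window lay in a region between genes centred 47.8 kb upstream of the start (chr1:60666577-60671337), with 4624, 4738, 4271 and 4266 bp of peaks. That region was not wider in the test tumors, and a region of 1206 bp in test 1 and 737 bp in test 2 that was absent from both control tumors lay 92.8 kb downstream of the start, beyond the end of the gene.

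The kinase gene Lck was the only member with an acetylated region in its body in all 4 tumors. It lay at chr4:129555551-129557339, overlapped coding exons, and began 16.3 to 16.5 kb downstream of the gene start. Its peaks measured 1105, 1298, 1739 and 1711 bp in control 1, control 2, test 1 and test 2. Gene body coverage followed, at 4.98%, 5.13%, 6.87% and 6.76%, so the groups did not overlap, an order found for 17.9% of all genes with body coverage. Lck is known to have a distal and a proximal promoter. Of 3 annotated starts 15.250, 15.269 and 15.554 kb downstream of the gene start, the first and second had no peak within 1 kb in any tumor and the last had one in all 4 tumors. That peak was the edge of the region just described, which did not cover this start. The region itself contained the starts of 3 further annotated transcripts. Counting a peak near any annotated transcript start therefore gave Lck a peak in all 4 tumors, and Cd3d in control 2. The central 200 bases of the 1016 bp shared by all 4 tumors are given because their base composition set them apart from the start of the gene (chr4:129556571-129556770, plus strand, CpG in capitals), with 17 CpG against 0 upstream of the gene start.
Shared region in the body of Lck: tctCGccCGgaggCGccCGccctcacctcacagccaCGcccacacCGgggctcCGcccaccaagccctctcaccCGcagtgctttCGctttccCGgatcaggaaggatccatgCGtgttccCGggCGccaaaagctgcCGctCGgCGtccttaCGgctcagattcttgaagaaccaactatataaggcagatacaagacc
The Lck window was the most covered of the 8, at 18.0%, 18.1%, 19.7% and 15.0%, above 92.3% to 94.0% of all genes in every tumor. Test 1 was the highest and test 2 the lowest, and the difference of -0.71 percentage points became 1.67 without test 2 and -3.09 without test 1. It holds 7 other protein-coding starts, of which Marcksl1, at the widest region, and Hdac1, Eif3i, Tmem234, Dcdc2b and Iqcc had a promoter peak in every tumor. Fam167b, next to Lck, had promoter peaks covering 339 and 623 bp in control 1 and control 2, and none in either test tumor.

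**Figure D3:**
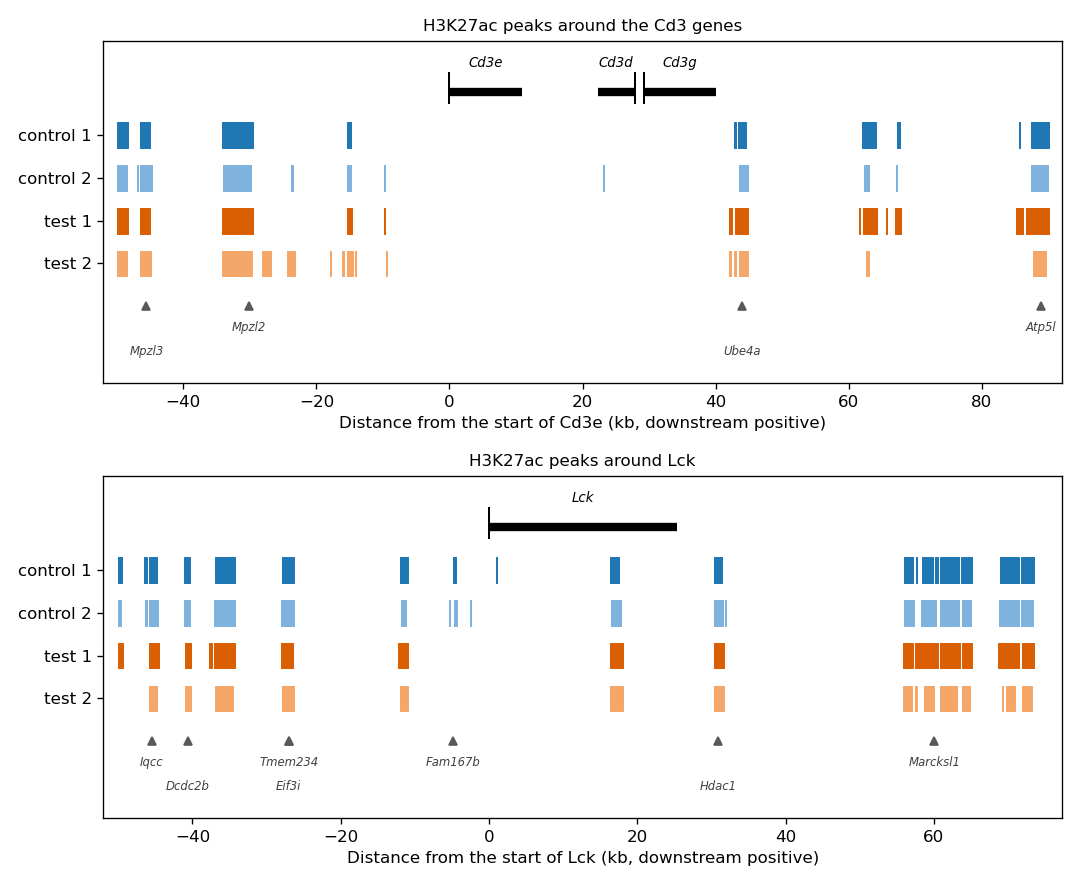
Peaks of each tumor (colored blocks, 1 row per tumor) against distance from the start of Cd3e (top) or Lck (bottom) in kb, with gene bodies as black bars, their starts as upright lines and neighbouring starts as triangles. The CD3 gene bodies were empty except for 1 narrow peak in control 2, whereas Lck held a block 16.3 kb past its start in all 4 tumors.

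Zap70, the kinase that docks on the phosphorylated CD3 chains, lay in a stretch with almost no called acetylation. Its window was covered by 0, 0.256%, 0 and 0.156% in control 1, control 2, test 1 and test 2, from 1 region inside the neighbouring gene Tmem131 with peaks of 310 and 189 bp. The nearest peak was 51.3 kb upstream of the start in all 4 tumors, outside the window. No difference between the groups was detectable here.

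Bcl11b was the only member with peaks over its start in more than 1 tumor, and in control 1, control 2 and test 1 it held the most peaks in its gene body. Its window held 16 and 17 peaks in the controls, 10 in test 1 and 1 in test 2. Coverage of the window was 5.17%, 5.54%, 3.004% and 0.0895% in the same order, or on average 5.35% ± 0.261 (SD, n = 2) for control and 1.55% ± 2.06 (SD, n = 2) for test. Both control tumors were above both test tumors, and the test tumors differed from each other by more than test 1 differed from the controls. Over the gene body alone, coverage was 9.23%, 10.8%, 5.89% and 0.186%, an order that 13.4% of all genes with body coverage shared. Between 93.5% and 100% of the covered bases of the window fell in the gene or within 1 kb of its start, and no other protein-coding gene starts in it.

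The start of Bcl11b lay in the widest region of the window (chr12:108001773-108004334), with peaks of 2562 bp in control 1, 1871 bp in control 2 and 1640 bp in test 1, and none in test 2. It reached over the upstream sequence shown above, the 5′ untranslated part and coding sequence. Downstream, 5 further regions of the gene body were present in the same 3 tumors, at 13.1, 27.5, 50.5, 65.9 and 72.9 kb from the start. The widest of these, at 50.5 kb, had 1774, 1728 and 1349 bp of peaks. Another 6 regions were present in both control tumors and neither test tumor, 5 of them in the gene body, with peaks of 155 to 515 bp, and the remaining 1 lay 40.0 kb upstream. Over the 6 loci 8 of 85 regions had this pattern and 2 had the reverse. Its share among regions outside the loci was not counted, and test 2 had a single peak in this window. No region of the window was present in both test tumors and absent from the controls. The single peak of test 2 was 173 bp wide, 22.9 kb into the gene, and it overlapped a region of 770 bp in control 2.

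**Figure D4:**
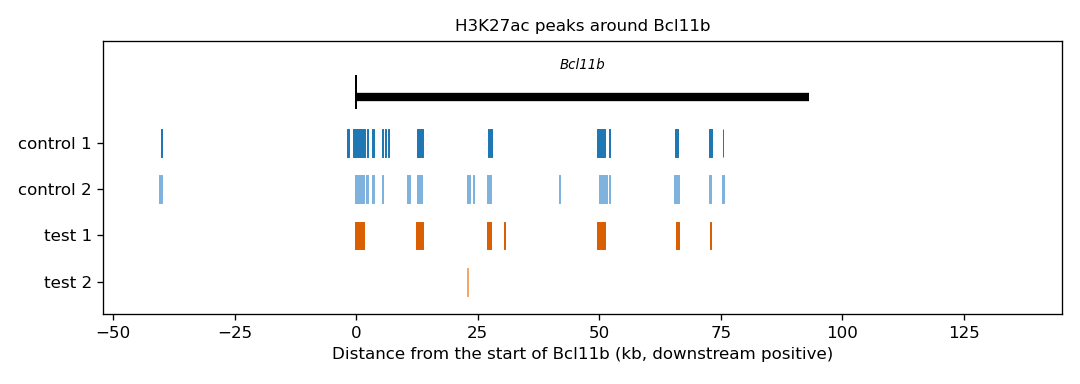
Peaks of each tumor (colored blocks, 1 row per tumor) against distance in kb from the start of Bcl11b, whose body is the black bar. Control 1, control 2 and test 1 had peaks at the start and at 5 shared places in the gene, and test 2 had 1 peak of 173 bp.

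Because Bcl11b is also made outside the T lineage and test 2 had few peaks, marker genes of the cell types in a tumor were counted by their promoter peaks. In control 1, control 2, test 1 and test 2, peaks were found for 5, 2, 4 and 0 of 8 myoepithelial and basal markers, for 4, 3, 3 and 0 of 9 fibroblast markers, and for 4, 4, 3 and 0 of 8 endothelial markers. Test 2 thus had none in these 3 lists, whereas luminal epithelial markers had 11, 10, 11 and 10 of 12. Of all protein-coding genes 53.5%, 53.9%, 54.1% and 51.9% had a promoter peak in the same order of tumors. Body coverage was above in both control tumors for 4 of 5 endothelial, 4 of 11 myeloid, 2 of 8 fibroblast and 2 of 7 basal markers with coverage, and for 0 of 11 luminal markers, of which 3 had both test tumors above. These are small counts, to be read against 13.4% and 17.9% of all genes. The 2 basal markers were Trp63, a transcription factor of basal cells, at 16.8%, 15.9%, 14.1% and 5.46% without a promoter peak, and Krt17, at 4.22%, 3.66%, 0 and 0. Krt5 and Krt14, keratins of basal cells, had promoter peaks in control 1 and test 1 only. Markers of T cells had 3, 2, 2 and 0 of 12, and the 12 include the 8 genes described here. Natural killer and innate lymphoid markers had 0, 1, 0 and 0 of 7, B cell markers 0 of 7 in each tumor, and myeloid markers 8, 6, 6 and 5 of 12. Hepatocyte markers had 0 of 5 in each tumor. The part of these cell types in the Bcl11b values was not tested. Without test 2 the difference at Bcl11b was -2.35 percentage points instead of -3.81.

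Other genes of the pathway were set beside the members in 6 lists of 78 genes. Promoter peaks were found for 27, 26, 27 and 16 of the 78 genes in control 1, control 2, test 1 and test 2. Over all tumors 34 had a peak in at least 1, 15 in all 4 and 44 in none. Of all protein-coding genes, 57.2% had a promoter peak in at least 1 tumor and 49.5% in all 4. The first 3 tumors had similar counts and test 2 had fewer, and 21 genes were marked in all of the first 3. The shares of all protein-coding genes, 53.5%, 53.9%, 54.1% and 51.9%, were closer to each other.

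Among the receptor chains 1 of 5 genes had a promoter peak, Trac in control 1. In 4 of the 5 (Trac, Trbc1, Trbc2 and Trdc) the annotated gene is a constant segment, whose start is not the promoter of the rearranged gene, so these counts say little of the receptor genes in use. The body of Trac, the constant part of the receptor alpha chain, was covered by 58.4%, 50.8%, 43.1% and 43.1%, and that of Trbc2, a constant part of the beta chain, by 10.8%, 7.83%, 0 and 0, with the control tumors above in both cases. Of the 3 receptor chain genes with body coverage, 2 had both control tumors above and 0 had both test tumors above. These orders were found for 13.4% and 17.9% of all genes with body coverage. Of the 12 coreceptor and costimulation genes 1 had a promoter peak, in test 1, and the body of Lag3 was covered by 9.75%, 9.86%, 13.996% and 10.3%, with the test tumors above. Lag3 was the 1 gene with this order among the 3 of this list with body coverage, against 17.9% of all genes. The opposite order held for 0 of the 3, against 13.4%. All 7 Th2 cytokine genes were without a promoter peak in every tumor, while 2 of them, chosen after their values were seen, held peaks in the gene body. Il10 was covered by 21.4%, 34.1%, 26.9% and 0 and Csf2 by 0, 24.4%, 9.14% and 24.4%, and the groups overlapped for both.

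The 26 genes of proximal receptor signalling had promoter peaks in 14, 13, 16 and 11 cases. In all 4 tumors 11 of them had a peak and 10 had none in any, so this list was split. Of the 22 genes with body coverage, 5 had both control tumors above and 1 had both test tumors above, orders found for 13.4% and 17.9% of all genes with body coverage. The body of the adaptor gene Sla was covered by 12.2%, 8.83%, 4.99% and 4.17%, and it overlaps the thyroglobulin gene Tg. The body of Nfatc1, a transcription factor activated by calcineurin, was covered by 4.22%, 3.01%, 1.88% and 1.17%. The body of Fyn, a kinase of the same family as Lck that many cell types use, was covered by 5.49%, 5.11%, 3.92% and 3.94%, and its promoter had a peak in all 4 tumors.

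Of the 12 transcription factor genes 6, 6, 6 and 4 had a promoter peak. The body of Ets1 was covered by 14.1%, 17.7%, 11.3% and 7.37% and that of Lef1 by 0.257%, 1.77%, 0 and 0.147%, with the control tumors above, and that of Satb1 by 5.89%, 6.16%, 9.44% and 7.24%, with the test tumors above. Of the 11 genes with body coverage, 2 had both control tumors above and 2 had both test tumors above (Satb1 and Tox), against 13.4% and 17.9% of all genes with body coverage. Gata3, the factor of Th2 cells that is also a factor of the luminal mammary epithelium, was chosen after its values were seen, because 82.4% to 92.3% of its body was covered in every tumor. Of the 16 other T cell and lymphocyte genes 6, 7, 4 and 1 had a promoter peak. Gimap6, a GTPase gene of the immunity-associated family, was the 1 gene of the 78 with promoter peaks in both control tumors and neither test tumor, and no gene showed the reverse. Over all protein-coding genes 0.534% had promoter peaks in both control tumors alone and 0.301% in both test tumors alone. The body of Gimap6 was covered by 23.8%, 13.5%, 0 and 0. That of the neighbouring Gimap4 was covered by 10.8%, 9.80%, 2.21% and 0, and that of Ptprcap, which encodes a protein associated with CD45 and overlaps Coro1b and Rps6kb2, by 49.8%, 41.7%, 29.9% and 0. Of the 14 genes of this last list with body coverage, 6 had both control tumors above and 0 had both test tumors above, against 13.4% and 17.9% of all genes with body coverage.

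**Figure D5:**
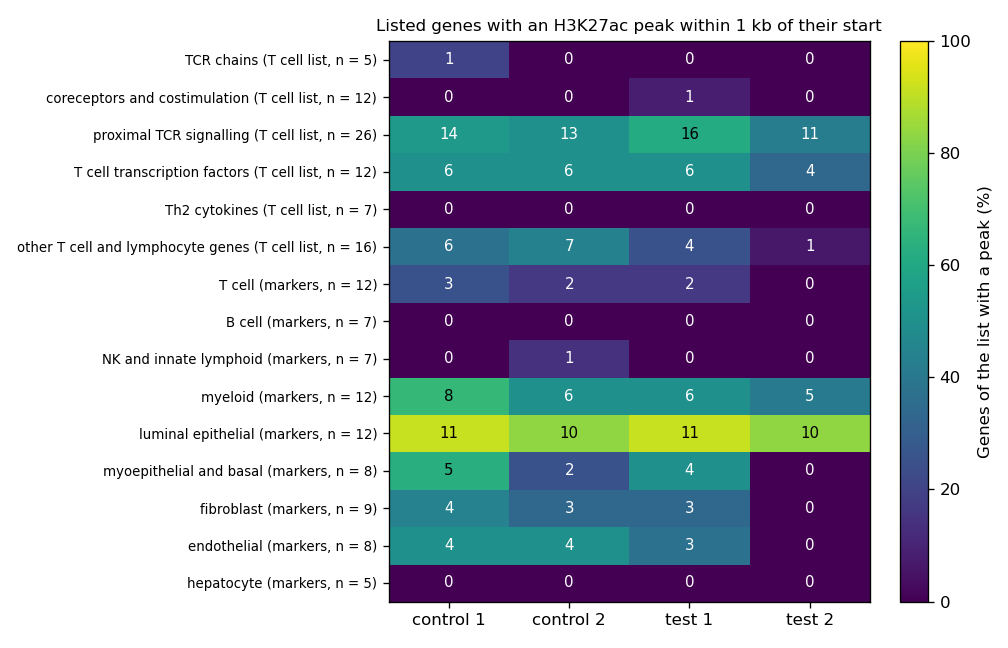
Number of genes with an H3K27ac peak within 1 kb of their start (printed in each cell) and its percent of the list (color), for 6 T cell lists and 9 marker lists (rows) in each tumor (columns). Test 2 had 0 in the T cell, basal, fibroblast and endothelial marker lists and 10 of 12 in the luminal list.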

How the data were processed

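H3K27ac ChIP-seq was performed on 2 control and 2 test tumors, 1 list each, grouped by genotype. The authors aligned reads with BWA to mm10 and ran MACS2 separately per tumor against matched input (not analysed here). The deposited files hold no signal, score or p-value, only the start and end positions, in base pairs, of peaks that, by their file names, had been cleaned and merged, with a smallest gap of 201 bp. Read depth is not given in the sources used here. Tumor numbers only name a tumor, and the labels do not say more of how the tumors of a group were sampled.

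Gene bodies and starts (5′ end of the gene) came from GENCODE M21 (GRCm38, the assembly of mm10) on 21 chromosomes, with 21938 protein-coding entries and 21911 distinct symbols. Windows added 50 kb either side, promoters 1 kb either side, and a peak counted with 1 bp of overlap. Control and test were compared by coverage per tumor and by whether the groups overlapped, and the same rule was run on all genes with coverage. The script was tested on simulated intervals. Alternatives were a 10 kb flank, the gene body alone, bases within 1 kb of another start left out, promoters of 2.5 kb, any transcript start, peaks at least 1 kb wide, equal numbers of peaks, and each tumor left out. From the lists, genes with promoter peaks in both tumors of 1 group only and up to 3 per list with the largest body difference without overlap were named. The members and lists were chosen with earlier results of these data known. Python 3.11.15, NumPy 2.4.6, pandas 2.3.3 and matplotlib 3.10.9 were used.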

Additional observations from a re-analysis of the deposited data

How the results depend on the processing

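No test was run, so calls are orders of tumors. With peaks at least 1 kb wide, 18 of the T cell list genes (34 with all peaks) and 1 member (Bcl11b, 3 with all peaks) had a promoter peak, and both test tumors lay above both control tumors for 2 members in place of 4. That last count was also 2 with a 10 kb flank and 1 over gene bodies alone. The difference over the 6 loci was -1.68 percentage points with a 10 kb flank and -2.34 over gene bodies alone, against -0.36. Bcl11b, the longest gene, stood at -6.23 and -6.97 in these 2 settings. The other members ran from -0.31 to 2.12 with a 10 kb flank and from -1.42 to 1.76 over gene bodies. With a tumor left out the difference over the 6 loci ran from -1.17 to 0.46, and it turned positive without test 2 (0.46). The count of members with the control tumors above ran from 1 to 2 with a tumor left out, without control 1 or without test 1 reaching 2. The count with the test tumors above was 5 without control 1, 6 without test 2, and 4 without control 2 or without test 1. The difference at Cd3d turned to -0.31 with a 10 kb flank and -1.42 over the gene body, and that at Cd4 to -0.21 with a 10 kb flank, so the higher window values of the test tumors there came from more than 10 kb away. At Bcl11b the difference was negative in every alternative run, from -6.97 to -2.35. Of 72 member values under alternatives, 61 moved by less than the spread between tumors and 8 moved by more. In the remaining 3, at Cd3d and Cd4, the mean difference changed sign against a called order. The order of the tumors was not reversed there, because control 2 alone held a peak and the groups overlapped. Counted across all 72, 11 changed sign, 7 of them within the spread. The 11 were the 3 at Cd3d and Cd4, 4 at Lck (1.76 over the gene body, 0.12 without bases near other starts, 0.23 with peaks at least 1 kb wide and 1.67 without test 2), 2 at Cd3g (-0.11 with peaks at least 1 kb wide and -0.42 without test 1) and 2 at Zap70 with a tumor left out. No paired analysis was possible because the labels give no replicate numbers, and the numbers 1 and 2 used here only name a tumor within its group. Peak lists without depth or height do not show how strong a peak was, and absence of a call is not absence of acetylation.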
